A study of Mus musculus with 21 samples.

Results

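Mitotic cell cycle genes encode the proteins that carry a cell from the end of DNA replication through chromosome segregation to division. They were taken here as a list of 40 named genes, each read from the probe set with 1 gene symbol and the highest mean over all arrays, and 39 of the 40 were measured among 12393 genes in all. The cells were RAW 264.7, a macrophage-like line grown from a mouse tumour, which divides in culture. They received amorphous silica for 2 h in serum-free medium: 10 nm particles at 5, 20 or 50 µg/ml, or 500 nm particles at 250, 500 or 1000 µg/ml, from low to mid to high dose. The 6 dose groups share 1 untreated control, and every group had 3 arrays, 21 in total. No label says whether the untreated cells were also moved to serum-free medium. None says that the 3 arrays of a group came from separate cultures. The p-values rest on the spread within groups, pooled over all 21 arrays, and this spread is possibly technical only. The sizes were given over different mass ranges. Dose divided by diameter was equal at the low doses, and again for the mid dose of 10 nm and the high dose of 500 nm, so these pairs share a nominal surface area.

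Entry into mitosis is driven by cyclin-dependent kinase 1 bound to A-type and B-type cyclins and switched on by CDC25 phosphatases. Aurora and Polo-like kinases then build the spindle, checkpoint proteins hold back the anaphase promoting complex until each kinetochore is attached, and a ring of anillin and actin divides the cell. Most of these genes are transcribed in waves late in the cycle, under a repressor complex (DREAM) and an activator complex (MuvB with B-MYB and FOXM1) that use a short promoter element, the cell cycle genes homology region, or CHR. CCAAT boxes bound by NF-Y often lie near it.

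The RefSeq promoter table for GRCm38.p6 held windows from 250 bases before to 50 after the start for 32 of the 39 measured genes, 35 windows in all. The core letters of the CHR, TTTGAA, and those of the CCAAT box, CCAAT, were searched on both strands, and no match of one overlapped a match of the other. TTTGAA was present in 74.3% of the 35 windows against 17.9% of all 32851 windows, and CCAAT in 80.0% against 37.4%. Both occurred together in 68.6% of the windows, 21 genes of 32, against 6.95% of all windows. The other mitotic genes listed further on had both in 35.4% of 65 windows, S phase genes in 5.41% of 37, and genes of the anaphase promoting complex in 0.0% of 15. The TTTGAA matches, 34 in all, had a median position of -16.5 relative to the start base and 15 of them lay after it, while the 60 CCAAT matches had a median position of -72.5. A match describes these letters only and is neither a shown site nor a cause.

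**Figure D1:**
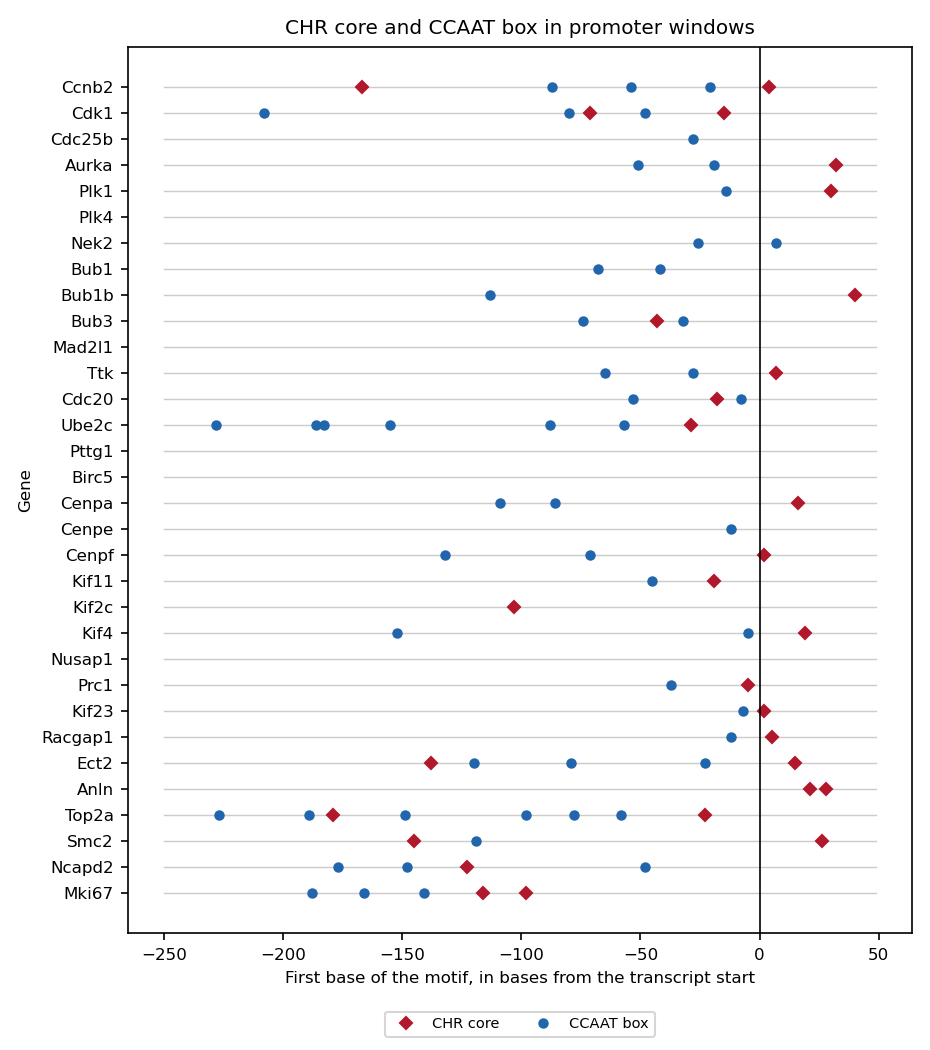
Positions of TTTGAA and CCAAT matches in the promoter windows of the measured genes, as distance from the transcription start in bases (horizontal axis), 1 line per gene; diamonds are TTTGAA and circles CCAAT, each at its first base. CCAAT matches lie mostly before the start, and 15 of the 34 TTTGAA matches in all 35 windows lie after it.

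The 250 bases before the start are printed for 4 genes whose levels are described below: the proliferation antigen Mki67 and the kinetochore protein Cenpf, which differed most between the particle sizes by adjusted p, Cdk1, the 1 member that rose, and Bub1b, which fell at both high doses. They run 5′ to 3′ on the gene's own strand of GRCm38.p6, with TTTGAA and CCAAT, or ATTGG for CCAAT on the other strand, in capitals. The Mki67 stretch is chr7:135716380-135716629, minus strand, that of Cdk1 chr10:69352913-69353162, minus strand, that of Bub1b chr2:118597961-118598210, plus strand, and that of Cenpf chr1:189688087-189688336, minus strand. In Bub1b and Cenpf the TTTGAA match lies after the start, outside the printed bases.
Mki67: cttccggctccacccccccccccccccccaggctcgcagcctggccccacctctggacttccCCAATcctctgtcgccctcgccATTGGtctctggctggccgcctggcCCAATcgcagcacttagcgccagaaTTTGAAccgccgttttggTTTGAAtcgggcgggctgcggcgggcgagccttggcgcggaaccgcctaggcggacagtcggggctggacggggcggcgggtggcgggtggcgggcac
Cdk1: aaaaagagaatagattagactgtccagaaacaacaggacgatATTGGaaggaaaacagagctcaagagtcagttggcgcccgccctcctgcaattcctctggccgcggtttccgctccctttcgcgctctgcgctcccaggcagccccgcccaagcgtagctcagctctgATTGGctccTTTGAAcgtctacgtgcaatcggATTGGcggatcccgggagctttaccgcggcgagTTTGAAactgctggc
Bub1b: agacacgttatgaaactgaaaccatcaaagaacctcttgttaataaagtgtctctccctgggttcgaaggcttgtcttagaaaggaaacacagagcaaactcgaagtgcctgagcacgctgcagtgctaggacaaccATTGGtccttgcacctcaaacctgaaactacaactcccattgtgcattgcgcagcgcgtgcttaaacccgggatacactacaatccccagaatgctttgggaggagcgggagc
Cenpf: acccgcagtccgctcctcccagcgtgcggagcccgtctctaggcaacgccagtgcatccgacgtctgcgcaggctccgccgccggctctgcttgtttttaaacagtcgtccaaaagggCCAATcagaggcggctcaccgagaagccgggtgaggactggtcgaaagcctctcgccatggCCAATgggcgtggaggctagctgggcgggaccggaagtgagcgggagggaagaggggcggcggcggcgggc

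The label of the cells was checked against markers. The 12 macrophage genes had group medians of 10.36 to 10.66 on the log2 scale, led by Csf1r at 13.09 to 13.46, while T cell, B cell, neutrophil, fibroblast and epithelial lists had medians of 3.87 to 4.45. The lists were not fully apart. The lowest macrophage gene lay below the median of all genes in every group. It read 6.18 in untreated cells, just above the T cell gene Cd3e at 6.13. In every silica group it read below Cd3e, as at the 10 nm high dose (5.84 against 6.63). The arrays did not share one distribution: the SD over genes was 2.58 to 2.64 in untreated cells, 2.41 to 2.57 at the 10 nm high dose and 2.46 to 2.59 at the 500 nm high dose, and replicate 3 had the lowest SD in 7 of 7 groups. The mitotic genes were bright, with array medians of 9.58 to 9.98 against 6.56 to 6.73 for all genes, and their direction is given below with and without scaling of the arrays to a common SD. Of the 26 marker genes of other cell types Cldn4 (epithelial) was called at the 10 nm high dose (0.50 ± 0.17, limma adjusted p = 0.0456) and Pdgfra (fibroblast) at the 500 nm high dose (0.39 ± 0.13, limma adjusted p = 0.0483), both higher, and of the macrophage genes Mpeg1 was lower at both (-0.40 ± 0.092, limma adjusted p = 0.00434 and -0.37 ± 0.092, limma adjusted p = 0.00999). The other cell types' markers, with list medians below that of all genes, read higher than in untreated cells for 23 of 26 genes at the 10 nm high dose (median 0.29) and for 25 of 26 at the 500 nm high dose (median 0.22), mostly without passing the test, beside the fall of the bright mitotic genes. The part of these shifts in the results was not tested.

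At the high dose of either size most mitotic genes read slightly lower than in untreated cells, although with the arrays scaled to a common SD 16 of 39 did so with 10 nm and 20 of 39 with 500 nm silica, and 2 genes passed the test at both. With 10 nm silica Aurkb, Ttk, Kif20a, Cdc25c, Ccna2, Mad2l1, Aurka and Bub1b fell, and with 500 nm silica Cenpf, Ect2, Mki67, Ttk, Ncapd2, Anln, Kif2c, Cdc25b, Bub1b and Kif4 fell while Cdk1 rose. The called falls lay between -0.27 and -0.63 with 10 nm and between -0.40 and -0.72 with 500 nm silica on the log2 scale. RNA from a whole culture was measured, so fewer cells in mitosis and less RNA per cell cannot be told apart. A gene is called here at a limma adjusted p under 0.05, with Benjamini-Hochberg adjustment over all 12393 genes.

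At the 10 nm high dose 8 of 39 genes (20.5%) were called, 0 higher and 8 lower, against 20.2% of all genes tested, 7.58% higher and 12.6% lower. The share called was near the background. The median change was -0.21 against 0.036 over all genes, and 34 of 39 values were negative. The direction changed with the scaling. After median centring 2 were higher and 3 lower, and after scaling of the arrays to a common SD 3 were higher (Mki67, Cdc20 and Cdk1) and 1 lower, with a median of 0.046 and 16 of 39 values negative. Quantile normalization left 0 higher and 3 lower. With the replicate number as a block, fitted over all 21 arrays, 1 was higher and 14 lower. Same-numbered arrays of these groups correlated at 0.46 to 0.72, but every such correlation was over 0.1 in 9 of 21 pairs of groups only. The count was 4 without 10 nm high dose replicate 2, 4 without replicate 3, 4 without untreated replicate 2 and 5 without untreated replicate 1.

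At the 500 nm high dose 11 of 39 genes (28.2%) were called, 1 higher and 10 lower, against 15.3% of all genes tested, 5.31% higher and 10.0% lower. The median change was -0.19 against 0.073 over all genes, and 32 of 39 values were negative. Scaling of the arrays to a common SD left 1 higher and 6 lower, a median of -0.0080 and 20 negative values. Median centring moved the median of all genes to 0.14 at the 10 nm and 0.17 at the 500 nm high dose. Bub1b and Ttk were called at both high doses, which is 25% of the 10 nm and 18.2% of the 500 nm calls. The comparisons share the untreated arrays. All 3 arrays of the dose lay below the 3 untreated ones for 15 of 39 genes with 10 nm (16.4% of all genes) and for 13 with 500 nm silica (15.9%). They lay above for 2 (16.9%) and 1 (15.2%).

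Few or no members passed the test at the lower doses. The limma count was 0 at the 10 nm low dose (0.767% of all genes called, 0.605% higher and 0.161% lower), with 0 at an unadjusted p under 0.05, and 0 at the 500 nm low dose (0.428%, 0.347% higher and 0.0807% lower), also with 0. It was 0 at the 500 nm mid dose (2.77%, 1.26% higher and 1.51% lower), where 6 had an unadjusted p under 0.05. With array weights limma called 4 at the 10 nm low, 0 at the 500 nm low and 9 at the 500 nm mid dose, all lower. The share of all genes called with these weights is not given here. At the 10 nm mid dose 1 of 39, the checkpoint gene Bub1b, fell (-0.28 ± 0.086, SE, limma adjusted p = 0.0465), against 10.6% of all genes called, 3.22% higher and 7.39% lower. Bub1b lost its mid dose call under median centring of the arrays and scaling of the arrays to a common SD (log2 value -0.19 to -0.11, adjusted p 0.180 to 0.565) or without untreated replicate 1, 2 or 3 or 10 nm mid dose replicate 1, 2 or 3 (log2 value -0.30 to -0.23, adjusted p 0.0622 to 0.156). With the replicate block over all 21 arrays 5 were called, all lower (same-numbered correlations of these groups 0.43 to 0.68). Scaling to a common SD gave 1 higher and 0 lower, and the count was 0 without any single 10 nm mid dose array and 2 without untreated replicate 1 or 2.

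A narrower fit bears on most of these calls. When only the arrays of the groups compared entered the fit, with the fewer residual degrees of freedom this leaves, limma called 0 genes for the mid and the high dose of 10 nm silica, and the genes called there had adjusted p of 0.216 and 0.0962 to 0.231. At the 500 nm high dose that fit called 3, Cenpf, Ncapd2 and Mki67, and the other 8 had adjusted p of 0.0526 to 0.201. Between the sizes described further on it called Mki67 alone, at the high doses (adjusted p of 0.0629 to 0.348 for the other 4) and at equal nominal area (0.0906 for Cenpf), and for the slopes it called Ccna2 with 10 nm (0.0577 to 0.128 for the other 3) and all 7 with 500 nm silica.

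**Figure D2:**
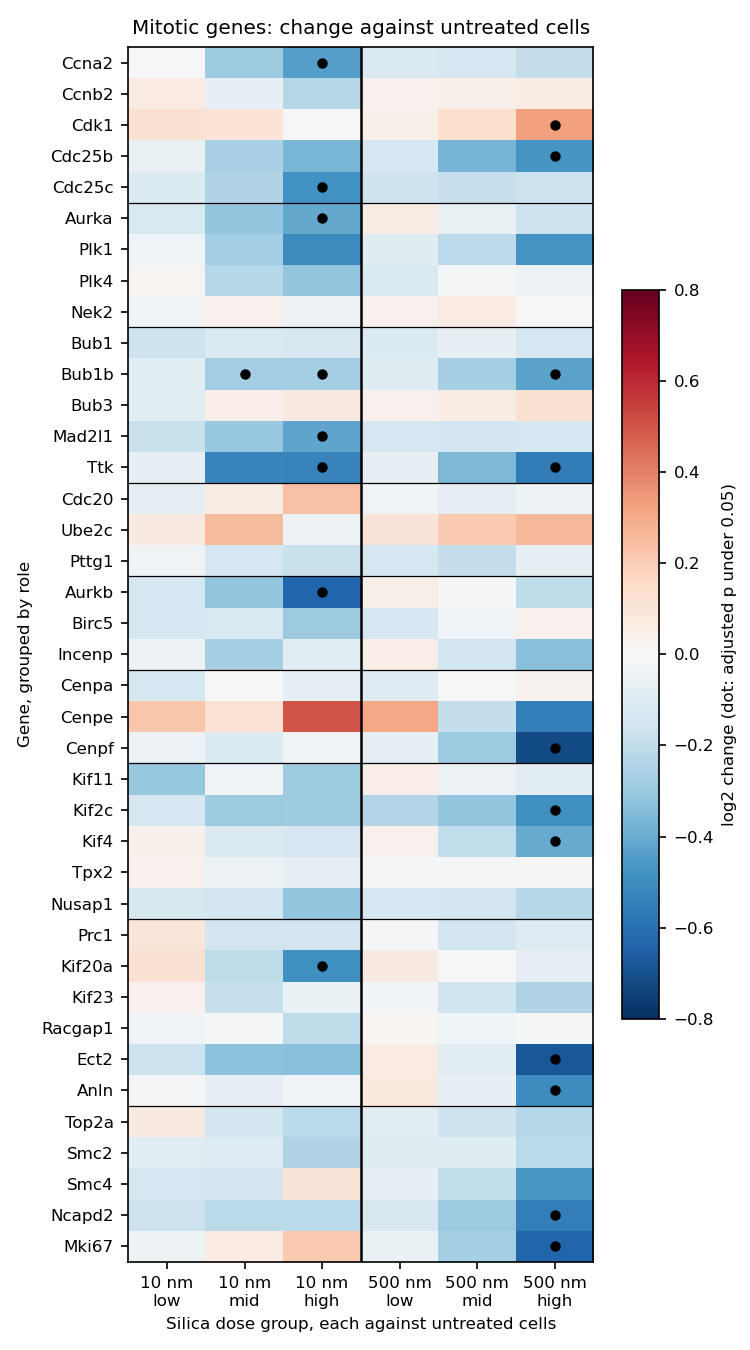
Log2 change of each of the 39 genes (vertical axis, grouped by role) against untreated cells at the 6 doses (horizontal axis), as colour, blue for lower and red for higher; a dot marks an adjusted p under 0.05. Dots gather in the high dose columns, on 8 genes with 10 nm and 11 with 500 nm silica, with Aurkb (-0.63) and Cenpf (-0.72) the darkest of them. Scaling of the arrays to a common SD moves the median of the 39 genes at the 10 nm high dose to above 0.

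The counts by role that follow stand beside 12.6% of all genes called lower with 10 nm and 10.0% with 500 nm silica. Called higher were 7.58% and 5.31% of all genes. Each role holds 3 to 6 measured genes, and no role was tested against these shares or against another role. In the cyclin and CDK1 engine of mitotic entry, 2 of 5 genes fell with 10 nm and 1 fell and 1 rose with 500 nm silica. Ccna2, the cyclin that partners CDKs in S phase and early mitosis, was lower at the 10 nm high dose. Ccna2 stood at log2 levels of 11.15, 11.15 and 11.17 in untreated cells, 10.86, 10.73 and 10.54 at the 10 nm high dose and 11.04, 10.95 and 10.91 at the 500 nm high dose. Its low and mid dose arrays held 11.17, 11.17 and 11.13, then 10.88, 10.95 and 10.79 for 10 nm particles, and 11.16, 11.02 and 10.94, then 11.10, 11.01 and 10.96 for 500 nm particles. All 3 arrays of each high dose lay below the untreated ones, whose values almost coincide. The change was -0.44 ± 0.094 (SE, limma adjusted p = 0.00236), which is 1.36-fold lower, and -0.19 ± 0.094 (SE, limma adjusted p = 0.194) with 500 nm silica. Ccna2 lost its 10 nm call under scaling of the arrays to a common SD (log2 value -0.15, adjusted p 0.218). Its second probe set changed by -0.50 and -0.44 and passed at both high doses (limma adjusted p = 0.00370 and 0.00962). Adjusted p of further probe sets is from a separate fit of 20380 probe sets, adjusted over these. Between the high doses that set differed by -0.058 (limma adjusted p = 0.840). Averaging of all probe sets called Ccna2 lower with 500 nm silica too (log2 value -0.32, adjusted p 0.0213). In the F test over the 7 groups the adjusted p of Ccna2 was 0.0145.

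Cdk1, the catalytic subunit that starts mitosis, was the 1 member that rose, and it did so with 500 nm particles. Log2 levels of Cdk1 were 11.11, 11.06 and 10.93 without particles, 11.13, 11.03 and 10.92 at the high dose of 10 nm silica and 11.43, 11.41 and 11.24 at that of 500 nm silica. Cdk1 read 11.06, 11.25 and 11.15 at the low and 11.18, 11.18 and 11.06 at the mid dose of 10 nm silica, against 11.07, 11.12 and 11.02 and then 11.14, 11.18 and 11.16 for 500 nm silica. The 500 nm high dose arrays lay above all untreated ones, while those of the 10 nm high dose spanned the same range as untreated cells. Against untreated cells it changed by 0.33 ± 0.091 (SE, limma adjusted p = 0.0197) with 500 nm silica, and by -0.0047 ± 0.091 (SE, limma adjusted p = 0.975) with 10 nm. Cdk1 lost its 500 nm call without untreated replicate 3 or 500 nm high dose replicate 1 or 2 (log2 value 0.27 to 0.30, adjusted p 0.0631 to 0.0767). After scaling of the arrays to a common SD Cdk1 was also called higher at the 10 nm high dose, at 0.30 (adjusted p = 0.0243).

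Among the phosphatases that remove the inhibitory phosphates from CDK1, Cdc25b, which acts first at the centrosome, was called with 500 nm silica. The untreated arrays read 7.60, 7.57 and 7.60 for Cdc25b on the log2 scale, the 10 nm high dose arrays 7.42, 7.23 and 7.03, and the 500 nm high dose arrays 7.11, 7.26 and 7.0. At the low and mid doses Cdc25b read 7.66, 7.58 and 7.34 and then 7.37, 7.40 and 7.24 with 10 nm silica, and 7.71, 7.27 and 7.37 and then 7.37, 7.24 and 7.05 with 500 nm silica. At both high doses all 3 arrays lay below the untreated ones. It fell by 0.47 on the log2 scale with 500 nm silica (SE 0.13, limma adjusted p = 0.0182), and its 10 nm change was -0.37 ± 0.13 (SE, limma adjusted p = 0.0530). Cdc25b lost its 500 nm call without 500 nm high dose replicate 1 or 3 (log2 value -0.46 to -0.41, adjusted p 0.0533 to 0.0825). At the 10 nm high dose Cdc25b passed as lower with the replicate block (adjusted p 0.00943), under array weights, the restriction to brighter genes and averaging of all probe sets (0.00542 to 0.0469), and without 10 nm high dose replicate 1 (0.0246). Cdc25c, the related phosphatase of full mitotic entry, was called with 10 nm silica. Cdc25c stood at log2 levels of 7.44, 7.36 and 7.23 in untreated cells, 7.14, 7.0 and 6.44 at the 10 nm high dose and 7.28, 7.27 and 6.97 at the 500 nm high dose. Its low and mid dose arrays held 7.12, 7.44 and 7.15, then 7.12, 7.25 and 6.95 for 10 nm particles, and 7.31, 7.22 and 7.0, then 7.11, 7.32 and 7.06 for 500 nm particles. The 10 nm high dose arrays lay below the untreated ones, with replicate 3 far under the other two, and the 500 nm arrays overlapped with untreated cells. The 10 nm change was -0.49 ± 0.16 (SE, limma adjusted p = 0.0353) and the 500 nm change -0.17 ± 0.16 (SE, limma adjusted p = 0.480). Cdc25c lost its 10 nm call under quantile normalization, median centring of the arrays and scaling of the arrays to a common SD (log2 value -0.38 to -0.35, adjusted p 0.0669 to 0.0949) or without untreated replicate 1 or 2 or 10 nm high dose replicate 3 (log2 value -0.48 to -0.28, adjusted p 0.0858 to 0.219). Ccnb2, a B-type cyclin, did not pass (-0.23 ± 0.11 and 0.062 ± 0.11, limma adjusted p = 0.158 and 0.733), and Ccnb1 had no probe set of a single symbol and was not analysed here.

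Among the mitotic kinases 1 of 4 fell with 10 nm and 0 of 4 passed with 500 nm silica. Aurka, which matures centrosomes and builds spindle poles, was lower with 10 nm silica. Log2 levels of Aurka were 10.20, 10.26 and 9.77 without particles, 9.85, 9.79 and 9.37 at the high dose of 10 nm silica and 9.96, 10.05 and 9.70 at that of 500 nm silica. Aurka read 9.89, 10.06 and 9.92 at the low and 9.74, 9.92 and 9.65 at the mid dose of 10 nm silica, against 10.15, 10.20 and 10.06 and then 9.96, 10.14 and 9.98 for 500 nm silica. Untreated replicate 3 read lower than the other two, so the groups overlapped. The 10 nm change was -0.41 ± 0.14 (SE, limma adjusted p = 0.0492) and the 500 nm change -0.17 ± 0.14 (SE, limma adjusted p = 0.434). Aurka lost its 10 nm call under quantile normalization, median centring of the arrays and scaling of the arrays to a common SD (log2 value -0.32 to -0.16, adjusted p 0.0844 to 0.288) or without untreated replicate 1 or 2 or 10 nm high dose replicate 2 or 3 (log2 value -0.47 to -0.26, adjusted p 0.0573 to 0.256). Plk1, the Polo-like kinase of mitotic entry and exit, changed by -0.51 ± 0.21 and -0.47 ± 0.21 (limma adjusted p = 0.0889 and 0.135). Plk4, which starts centriole duplication, and Nek2, which separates centrosomes, gave -0.31 and -0.044 with 10 nm and -0.039 and -0.0018 with 500 nm silica, none of them called. With the replicate block Plk1 and Plk4 passed as lower at the 10 nm high dose (adjusted p 0.00594 and 0.0199).

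The spindle checkpoint had 3 of 5 genes lower with 10 nm and 2 of 5 with 500 nm silica. Bub1b, which encodes BUBR1, the checkpoint subunit that holds CDC20, fell at both high doses. The untreated arrays read 10.52, 10.53 and 10.67 for Bub1b on the log2 scale, the 10 nm high dose arrays 10.38, 10.33 and 10.18, and the 500 nm high dose arrays 10.20, 10.08 and 10.16. At the low and mid doses Bub1b read 10.41, 10.53 and 10.51 and then 10.27, 10.32 and 10.30 with 10 nm silica, and 10.49, 10.46 and 10.47 and then 10.40, 10.21 and 10.30 with 500 nm silica. Every array of both high doses lay below every untreated array. The changes were -0.27 ± 0.086 (SE, limma adjusted p = 0.0314) with 10 nm and -0.43 ± 0.086 (SE, limma adjusted p = 0.00176) with 500 nm silica. Bub1b lost its 10 nm call under quantile normalization, median centring of the arrays and scaling of the arrays to a common SD (log2 value -0.20 to -0.0016, adjusted p 0.0950 to 0.994) or without untreated replicate 2 or 3 or 10 nm high dose replicate 2 or 3 (log2 value -0.29 to -0.22, adjusted p 0.0526 to 0.136). Bub1b lost its 500 nm call under scaling of the arrays to a common SD (log2 value -0.22, adjusted p 0.154). Ttk, the MPS1 kinase that starts checkpoint signalling, also fell at both. Ttk stood at log2 levels of 8.97, 8.97 and 9.75 in untreated cells, 8.74, 8.45 and 8.88 at the 10 nm high dose and 8.77, 8.41 and 8.83 at the 500 nm high dose. Its low and mid dose arrays held 9.17, 9.01 and 9.31, then 8.54, 8.66 and 8.92 for 10 nm particles, and 9.27, 9.11 and 9.13, then 8.93, 8.76 and 8.92 for 500 nm particles. Both high doses lay below the untreated arrays, of which replicate 3 read higher than the other two. Ttk changed by -0.54 ± 0.18 (SE, limma adjusted p = 0.0392) with 10 nm and by -0.56 ± 0.18 (SE, limma adjusted p = 0.0392) with 500 nm silica. Ttk lost its 10 nm call under quantile normalization, median centring of the arrays and scaling of the arrays to a common SD (log2 value -0.43 to -0.33, adjusted p 0.0864 to 0.248) or without untreated replicate 3 or 10 nm high dose replicate 1 or 2 (log2 value -0.56 to -0.28, adjusted p 0.0520 to 0.172). Ttk lost its 500 nm call under quantile normalization, median centring of the arrays and scaling of the arrays to a common SD (log2 value -0.50 to -0.39, adjusted p 0.0832 to 0.174) or without untreated replicate 3 or 500 nm high dose replicate 1 or 2 (log2 value -0.61 to -0.30, adjusted p 0.0598 to 0.202).

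Mad2l1, the checkpoint protein MAD2 that binds CDC20 at unattached kinetochores, fell with 10 nm silica. Log2 levels of Mad2l1 were 10.77, 10.74 and 11.12 without particles, 10.53, 10.40 and 10.43 at the high dose of 10 nm silica and 10.80, 10.78 and 10.64 at that of 500 nm silica. Mad2l1 read 10.63, 10.70 and 10.77 at the low and 10.57, 10.57 and 10.58 at the mid dose of 10 nm silica, against 10.74, 10.73 and 10.76 and then 10.69, 10.78 and 10.70 for 500 nm silica. The 10 nm high dose arrays lay below all untreated and all 500 nm high dose arrays. Its change was -0.42 ± 0.098 (SE, limma adjusted p = 0.00468) with 10 nm and -0.13 ± 0.098 (SE, limma adjusted p = 0.374) with 500 nm silica. Mad2l1 lost its 10 nm call under scaling of the arrays to a common SD (log2 value -0.14, adjusted p 0.420). Bub1, the kinase that places checkpoint proteins on kinetochores, gave -0.13 and -0.14, and its partner Bub3 gave 0.070 and 0.12, with no call.

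Of the anaphase switch 0 of 3 genes passed at either high dose in the fit without the replicate block, and Cdc20 passed as higher with it at the 10 nm high dose. Cdc20, the activator of the anaphase promoting complex, read 11.56, 11.52 and 11.74 in untreated cells and 11.76, 11.77 and 11.99 at the 10 nm high dose. Its 10 nm arrays all lay above the untreated ones, with a change of 0.23 ± 0.094 (SE, limma adjusted p = 0.0837), against -0.044 ± 0.094 (SE, limma adjusted p = 0.779) with 500 nm silica. With the block the 10 nm adjusted p of Cdc20 was 0.0353. It also passed under median centring of the arrays, array weights, the restriction to brighter genes, averaging of all probe sets and scaling of the arrays to a common SD (0.00263 to 0.0452), and without untreated replicate 3 (0.0397). Ube2c, the ubiquitin-conjugating enzyme of that complex, gave -0.038 ± 0.36 and 0.26 ± 0.36, and securin, Pttg1, which holds back separase, -0.18 ± 0.090 and -0.066 ± 0.090.

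In the chromosomal passenger complex, which corrects wrong attachments and then steers division, 1 of 3 genes fell with 10 nm and 0 of 3 passed with 500 nm silica. Aurkb, its kinase, had the largest called fall of the 10 nm high dose. The untreated arrays read 9.82, 9.64 and 9.35 for Aurkb on the log2 scale, the 10 nm high dose arrays 9.12, 9.17 and 8.61, and the 500 nm high dose arrays 9.31, 9.54 and 9.34. At the low and mid doses Aurkb read 9.29, 9.70 and 9.42 and then 9.37, 9.33 and 9.16 with 10 nm silica, and 9.58, 9.66 and 9.71 and then 9.51, 9.67 and 9.60 with 500 nm silica. The 10 nm high dose arrays lay below all untreated and all 500 nm high dose arrays, and replicate 3 was the lowest of them. Aurkb changed by -0.63 ± 0.15 (SE, limma adjusted p = 0.00460), 1.55-fold lower, and by -0.21 ± 0.15 (SE, limma adjusted p = 0.361) with 500 nm silica. Its second probe set changed by -0.51 with 10 nm and -0.37 with 500 nm silica (limma adjusted p = 0.0204 and 0.105). Between the high doses that set differed by -0.14 (limma adjusted p = 0.668). Birc5, or survivin, gave -0.29 ± 0.12 and 0.036 ± 0.12, and the scaffold Incenp -0.084 ± 0.16 and -0.33 ± 0.16, none called. With the replicate block Birc5 passed as lower at the 10 nm high dose (adjusted p 0.0298).

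At the centromere and kinetochore 0 of 3 genes passed with 10 nm and 1 of 3 fell with 500 nm silica. Cenpf, a large protein of the outer kinetochore and nuclear envelope, had the largest called fall of the 500 nm high dose. Cenpf stood at log2 levels of 8.53, 8.58 and 8.59 in untreated cells, 8.56, 8.49 and 8.57 at the 10 nm high dose and 7.89, 8.03 and 7.62 at the 500 nm high dose. Its low and mid dose arrays held 8.51, 8.58 and 8.47, then 8.49, 8.53 and 8.35 for 10 nm particles, and 8.51, 8.52 and 8.43, then 8.28, 8.36 and 8.19 for 500 nm particles. The 500 nm high dose arrays were the lowest of all 21, those of the 500 nm mid dose were also below all untreated ones, and the 10 nm high dose overlapped with untreated cells. Its change was -0.72 ± 0.099 (SE, limma adjusted p = 3.95e-05) with 500 nm, 1.64-fold lower, and -0.026 ± 0.099 (SE, limma adjusted p = 0.870) with 10 nm silica. The 500 nm call was kept under all 8 other settings and without any single array of these groups. A second, dim probe set gave -0.22 (adjusted p = 0.478). Cenpa, the histone H3 variant of centromeres, gave -0.079 ± 0.17 and 0.025 ± 0.17, and the kinetochore motor Cenpe 0.50 ± 0.39 and -0.55 ± 0.39, neither called.

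Of the spindle motors and microtubule proteins 0 of 5 passed with 10 nm and 2 of 5 fell with 500 nm silica. Kif2c, or MCAK, a kinesin that shortens microtubules at centromeres, was lower with 500 nm silica. Log2 levels of Kif2c were 8.53, 8.62 and 8.86 without particles, 8.48, 8.51 and 8.17 at the high dose of 10 nm silica and 8.37, 8.09 and 8.08 at that of 500 nm silica. Kif2c read 8.52, 8.52 and 8.56 at the low and 8.32, 8.44 and 8.39 at the mid dose of 10 nm silica, against 8.57, 8.38 and 8.34 and then 8.34, 8.40 and 8.34 for 500 nm silica. All arrays of both high doses lay below the untreated ones. Kif2c changed by -0.49 ± 0.11 (SE, limma adjusted p = 0.00551) with 500 nm and by -0.28 ± 0.11 (SE, limma adjusted p = 0.0859) with 10 nm silica. Kif2c lost its 500 nm call under averaging of all probe sets (log2 value -0.27, adjusted p 0.165). Its other 3 probe sets gave -0.42, -0.20 and 0.024 with 500 nm silica, 1 of them of opposite sign and none called. Kif4, a chromokinesin that organises the midzone, was also lower. The untreated arrays read 8.49, 8.44 and 8.29 for Kif4 on the log2 scale, the 10 nm high dose arrays 8.47, 8.29 and 8.07, and the 500 nm high dose arrays 8.05, 8.07 and 7.91. At the low and mid doses Kif4 read 8.30, 8.68 and 8.37 and then 8.24, 8.41 and 8.22 with 10 nm silica, and 8.41, 8.42 and 8.49 and then 8.21, 8.15 and 8.28 with 500 nm silica. The 500 nm high dose arrays lay below all untreated ones, and those of 10 nm overlapped with them. Its 500 nm change was -0.40 ± 0.12 (SE, limma adjusted p = 0.0231) and its 10 nm change -0.13 ± 0.12 (SE, limma adjusted p = 0.418). Kif4 lost its 500 nm call under median centring of the arrays and scaling of the arrays to a common SD (log2 value -0.31 to -0.26, adjusted p 0.0622 to 0.0799) or without untreated replicate 1 or 2 or 500 nm high dose replicate 3 (log2 value -0.38 to -0.35, adjusted p 0.0677 to 0.0962). Kif11, the motor that pushes spindle poles apart, varied widely (-0.28 ± 0.48 and -0.085 ± 0.48). The spindle assembly factor Tpx2 (-0.079 and 0.0065) and the microtubule bundler Nusap1 (-0.31 and -0.23) did not pass either. Nusap1 passed as lower at the 10 nm high dose with the replicate block (adjusted p 0.0268).

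Of the cytokinesis genes 1 of 6 fell with 10 nm and 2 of 6 with 500 nm silica. Kif20a, the kinesin that carries the passenger complex to the midzone, was lower with 10 nm silica. Kif20a stood at log2 levels of 8.93, 8.92 and 8.69 in untreated cells, 8.65, 8.45 and 7.98 at the 10 nm high dose and 9.02, 8.82 and 8.46 at the 500 nm high dose. Its low and mid dose arrays held 8.99, 9.04 and 8.88, then 8.74, 8.76 and 8.43 for 10 nm particles, and 9.14, 8.77 and 8.86, then 8.95, 8.89 and 8.70 for 500 nm particles. The 10 nm high dose arrays lay below the untreated ones, with replicate 3 the lowest, and the 500 nm arrays overlapped with them. The change was -0.49 ± 0.16 (SE, limma adjusted p = 0.0427) with 10 nm and -0.078 ± 0.16 (SE, limma adjusted p = 0.773) with 500 nm silica. Kif20a lost its 10 nm call under quantile normalization, median centring of the arrays and scaling of the arrays to a common SD (log2 value -0.38 to -0.30, adjusted p 0.0743 to 0.111) or without untreated replicate 1 or 2 or 10 nm high dose replicate 2 or 3 (log2 value -0.53 to -0.30, adjusted p 0.0636 to 0.243). Ect2, the exchange factor that activates RhoA for the contractile ring, was lower with 500 nm silica. Log2 levels of Ect2 were 8.55, 8.62 and 9.45 without particles, 8.29, 8.47 and 8.85 at the high dose of 10 nm silica and 8.22, 8.15 and 8.21 at that of 500 nm silica. Ect2 read 8.62, 8.60 and 8.88 at the low and 8.59, 8.33 and 8.71 at the mid dose of 10 nm silica, against 8.88, 8.87 and 9.07 and then 8.78, 8.68 and 8.87 for 500 nm silica. The 500 nm high dose arrays lay below all untreated arrays, and untreated replicate 3 read much higher than the other two. Ect2 changed by -0.68 ± 0.19 (SE, limma adjusted p = 0.0173) with 500 nm and by -0.33 ± 0.19 (SE, limma adjusted p = 0.204) with 10 nm silica. Ect2 lost its 500 nm call under quantile normalization and scaling of the arrays to a common SD (log2 value -0.59 to -0.53, adjusted p 0.0768 to 0.0928) or without untreated replicate 3 (log2 value -0.39, adjusted p 0.0936).

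Anln, or anillin, which anchors the contractile ring, fell with 500 nm silica as well. The untreated arrays read 9.59, 9.61 and 9.45 for Anln on the log2 scale, the 10 nm high dose arrays 9.72, 9.60 and 9.26, and the 500 nm high dose arrays 9.18, 9.03 and 8.93. At the low and mid doses Anln read 9.41, 9.75 and 9.45 and then 9.56, 9.64 and 9.25 with 10 nm silica, and 9.59, 9.68 and 9.62 and then 9.42, 9.56 and 9.48 with 500 nm silica. The 500 nm high dose arrays were the lowest of all 21, and the 10 nm high dose arrays overlapped with untreated cells. Anln changed by -0.51 ± 0.13 (SE, limma adjusted p = 0.0106) with 500 nm and by -0.024 ± 0.13 (SE, limma adjusted p = 0.908) with 10 nm silica. Anln lost its 500 nm call without 500 nm high dose replicate 3 (log2 value -0.45, adjusted p 0.0531). Prc1, the midzone bundler, gave -0.15 and -0.10 with 10 and 500 nm silica. Kif23 and Racgap1, the partners of the centralspindlin complex, gave -0.052 and -0.20 with 10 nm and -0.24 and -0.0097 with 500 nm silica, none called.

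In chromosome structure 0 of 5 genes passed with 10 nm and 2 of 5 fell with 500 nm silica. Mki67 encodes Ki-67, the coat of mitotic chromosomes used as a marker of proliferating cells. Mki67 stood at log2 levels of 11.21, 11.25 and 11.34 in untreated cells, 11.51, 11.47 and 11.45 at the 10 nm high dose and 10.70, 10.65 and 10.55 at the 500 nm high dose. Its low and mid dose arrays held 11.13, 11.44 and 11.12, then 11.33, 11.38 and 11.30 for 10 nm particles, and 11.30, 11.19 and 11.15, then 11.02, 11.07 and 10.92 for 500 nm particles. All 3 arrays of the 10 nm high dose lay above the untreated ones, and all 3 of the 500 nm high dose lay below every other array. The 500 nm change was -0.64 ± 0.095 (SE, limma adjusted p = 9.41e-05), 1.56-fold lower, and the 10 nm change 0.21 ± 0.095 (SE, limma adjusted p = 0.125). Median centring and scaling to a common SD each called Mki67 higher with 10 nm silica. The 500 nm calls for Mki67 and Ncapd2 were kept under all 8 other settings and without any single array of the 2 groups compared. Ncapd2, a subunit of condensin I, which compacts chromosomes, also fell with 500 nm silica. Log2 levels of Ncapd2 were 9.61, 9.55 and 9.55 without particles, 9.38, 9.47 and 9.21 at the high dose of 10 nm silica and 9.17, 9.0 and 8.88 at that of 500 nm silica. Ncapd2 read 9.40, 9.51 and 9.30 at the low and 9.34, 9.41 and 9.31 at the mid dose of 10 nm silica, against 9.46, 9.38 and 9.48 and then 9.35, 9.22 and 9.25 for 500 nm silica. Both high doses lay below the untreated arrays, the 500 nm dose further down. Ncapd2 changed by -0.55 ± 0.096 (SE, limma adjusted p = 4.33e-04) with 500 nm and by -0.21 ± 0.096 (SE, limma adjusted p = 0.118) with 10 nm silica. The condensin core subunits Smc2 (-0.24 and -0.22) and Smc4 (0.10 and -0.46), and Top2a, the topoisomerase that untangles sister chromatids (-0.22 and -0.23), were not called at either high dose. Smc2 passed as lower at the 10 nm high dose with the replicate block (adjusted p 0.0447).

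**Figure D3:**
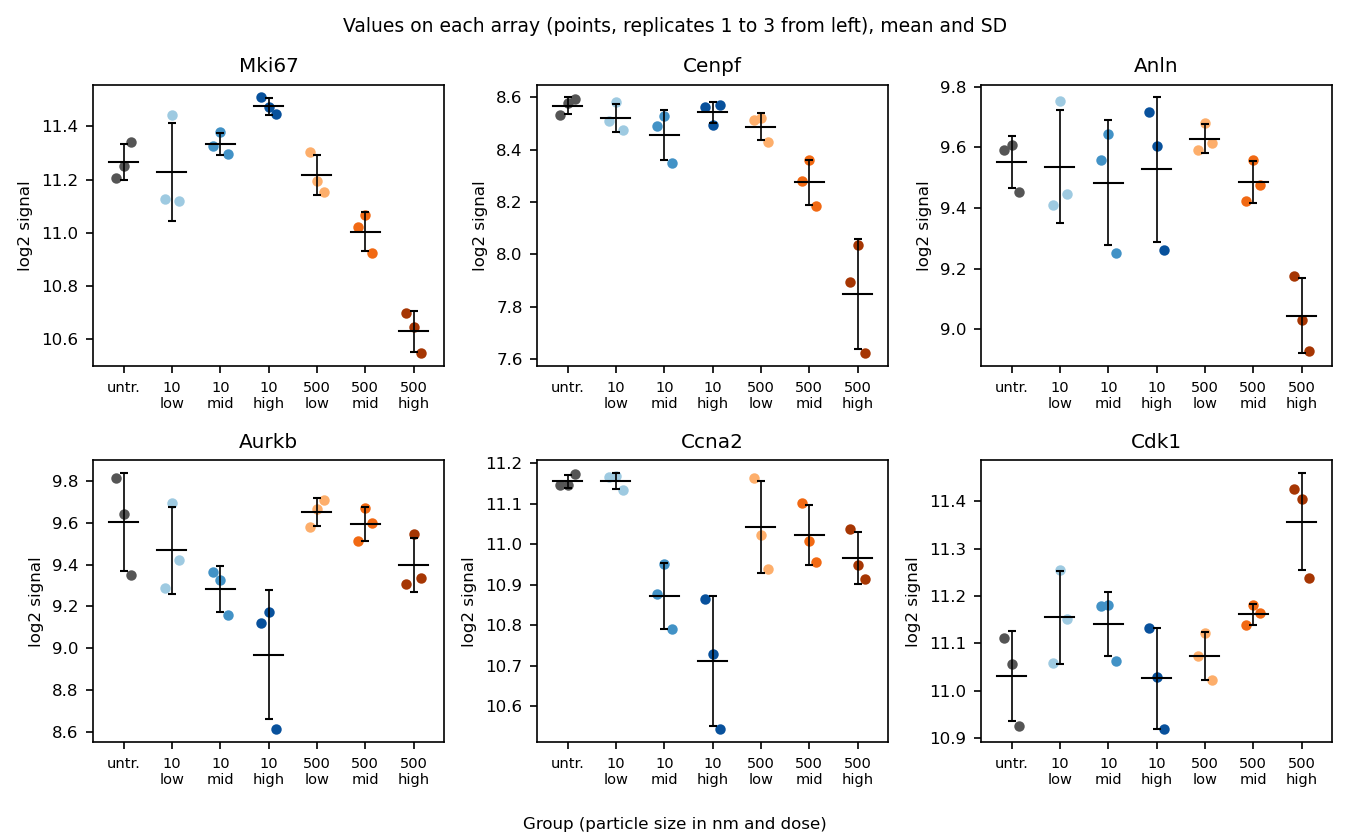
Log2 level on each of the 21 arrays, by group, for Mki67, Cenpf, Anln, Aurkb, Ccna2 and Cdk1; points are the 3 arrays of a group, the horizontal line is their mean and the bars their SD, and the vertical axes do not start at 0. Mki67, Cenpf and Anln are lowest on the 3 arrays of the 500 nm high dose. Aurkb and Ccna2 are lowest on average at the 10 nm high dose, and Cdk1 is highest on average at the 500 nm high dose.

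Set directly against each other, the high doses of the 2 sizes differed in 5 of 39 genes (12.8%), against 7.52% of all genes, 3.37% higher and 4.15% lower with 10 nm silica. With 10 nm silica Mki67, Cenpf, Anln and Ncapd2 were higher, and Cdk1 was lower. These doses differ in mass and in nominal surface area, so size was not varied alone. The differences, 10 nm minus 500 nm, were 0.85 ± 0.095 (SE, limma adjusted p = 1.24e-05) for Mki67, 0.69 ± 0.099 (SE, limma adjusted p = 1.72e-04) for Cenpf and 0.48 ± 0.13 (SE, limma adjusted p = 0.0255) for Anln. For Ncapd2 the difference was 0.34 ± 0.096 (SE, limma adjusted p = 0.0361) and for Cdk1 -0.33 ± 0.091 (SE, limma adjusted p = 0.0312). For all 5 the 3 arrays of one size lay wholly beyond those of the other. That held for 9 genes higher with 10 nm silica, against 9.15% of all genes, and for 7 lower ones, against 12.2%. Anln lost its size call without 10 nm high dose replicate 1 or 2 or 500 nm high dose replicate 2 or 3 (log2 value 0.39 to 0.47, adjusted p 0.0820 to 0.101). Ncapd2 lost its size call without 10 nm high dose replicate 1 or 2 or 500 nm high dose replicate 2 or 3 (log2 value 0.27 to 0.33, adjusted p 0.0819 to 0.147). Cdk1 lost its size call under scaling of the arrays to a common SD (log2 value -0.26, adjusted p 0.0845) or without 10 nm high dose replicate 2 or 3 or 500 nm high dose replicate 1 or 2 (log2 value -0.33 to -0.28, adjusted p 0.0785 to 0.134). With the replicate block over all 21 arrays 13 were called, 7 higher and 6 lower (same-numbered correlations of these 2 groups 0.28 to 0.70). Scaling to a common SD gave 4 higher and 0 lower. The count was 2 without 10 nm high dose replicate 2 or without 500 nm high dose replicate 2, and 3 without 10 nm high dose replicate 1 or 500 nm high dose replicate 3.

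For 4 of the 6 genes called with 10 nm silica alone, a difference between the sizes was called with the replicate block but not in the reported fit. For Aurkb the difference was -0.43 ± 0.15 (95% interval -0.74 to -0.12, limma adjusted p = 0.0891), for Kif20a -0.41 ± 0.16 (95% interval -0.76 to -0.065, limma adjusted p = 0.158) and for Mad2l1 -0.29 ± 0.098 (95% interval -0.49 to -0.083, limma adjusted p = 0.0862). With the block, adjusted p was 0.0228 for Aurkb, 0.0129 for Kif20a, 0.0466 for Mad2l1 and 0.0401 for Ccna2, all lower with 10 nm silica, while Cdc25c and Aurka passed in neither fit. Array weights also called Ccna2, Kif20a, Mad2l1 and Cdc25c lower (adjusted p 3.84e-05 to 0.0174). Testing only genes above the median level called Ccna2, Mad2l1 and Aurkb lower (0.0342 to 0.0496). The second probe sets of Ccna2 and Aurkb did not pass between the sizes (limma adjusted p = 0.840 and 0.668). Of the other genes the block called Birc5 lower (adjusted p 0.0305) and Cdc20 and Smc4 higher with 10 nm silica (0.0278 and 0.00991). The interval for Ttk, called at both, ran from -0.35 to 0.39, and that for Bub1b from -0.028 to 0.33. Cenpe had the widest gap of the 39, 1.05 ± 0.39, with non-overlapping arrays (limma adjusted p = 0.123 without and 0.00207 with the block).

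At equal nominal surface area, the 10 nm mid and the 500 nm high dose differed in 2 of 39 genes (5.13%), against 2.85% of all genes, 1.81% higher and 1.04% lower with 10 nm silica. Mki67 was higher by 0.70 ± 0.095 (SE, limma adjusted p = 2.12e-04) and Cenpf by 0.60 ± 0.099 (SE, limma adjusted p = 0.00145) with 10 nm silica. Mki67 read 11.33, 11.38 and 11.30 on the 10 nm and 10.70, 10.65 and 10.55 on the 500 nm arrays, and Cenpf 8.49, 8.53 and 8.35 and 7.89, 8.03 and 7.62, so the groups lay apart for both. The low doses, also equal in nominal area, differed in 0 of 39 by limma (0.0888% of all genes, 0.0807% higher and 0.00807% lower), with 0 at an unadjusted p under 0.05 and 0 with array weights.

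**Figure D4:**
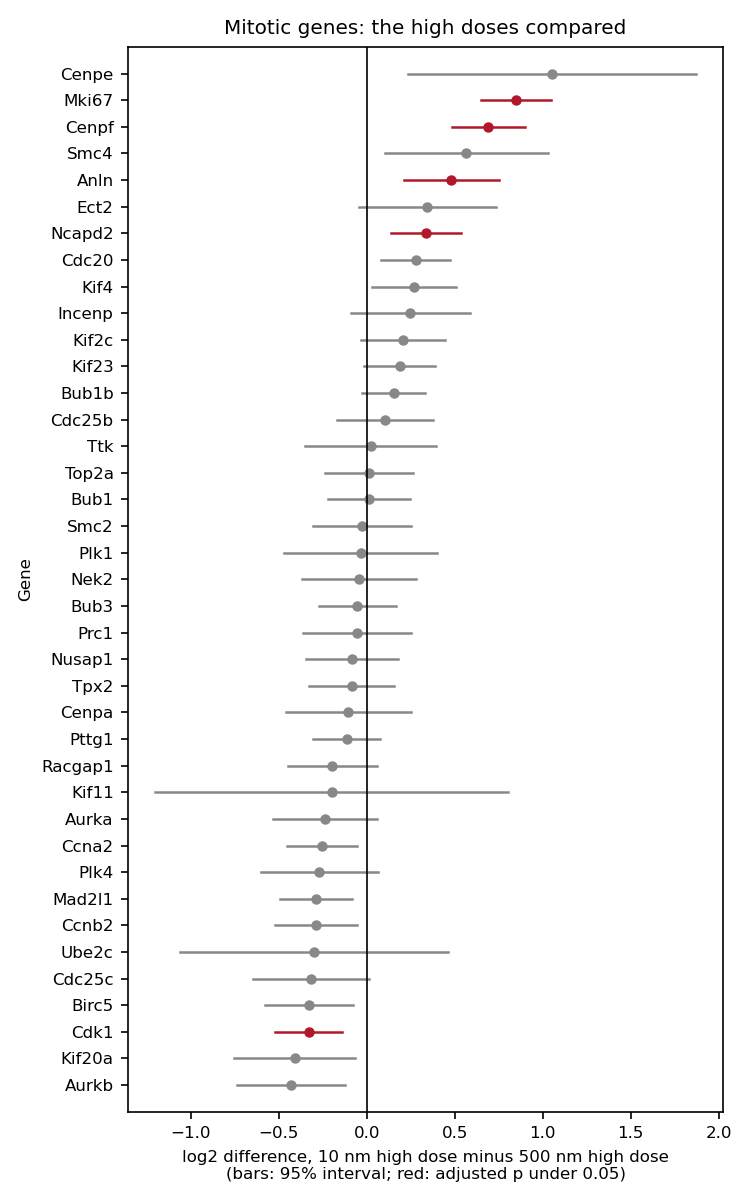
Difference between the high doses for each of the 39 genes (vertical axis, in order of size) in log2 units, 10 nm minus 500 nm (horizontal axis); points are estimates, bars the 95% interval of the limma fit, and red marks an adjusted p under 0.05. Mki67 (0.85) and Cenpf (0.69) lie furthest to the right among the red points, and Cdk1 (-0.33) is the red point left of 0.

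Across the 3 doses of one size, untreated cells left out, the level was fitted against log2 dose. With 10 nm silica 4 of 39 slopes passed (10.3%, against 12.2% of all genes, 3.13% rising and 9.05% falling): Ccna2 at -0.13 ± 0.028, Kif20a at -0.18 ± 0.049 and Aurkb at -0.15 ± 0.044 log2 units per doubling fell, and Cdc20 rose at 0.092 ± 0.028 (limma adjusted p of 0.00329, 0.0191, 0.0344 and 0.0364). The split of 1 rising and 3 falling became 0 and 2 under quantile normalization, 2 and 2 under median centring, and 2 and 1 under scaling to a common SD. Ccna2 lost its slope call under scaling of the arrays to a common SD (slope -0.061, adjusted p 0.136). Kif20a lost its slope call without 10 nm low dose replicate 1 or 2 or 10 nm high dose replicate 3 (slope -0.18 to -0.13, adjusted p 0.0624 to 0.0923). Aurkb lost its slope call under quantile normalization, median centring of the arrays, array weights, averaging of all probe sets and scaling of the arrays to a common SD (slope -0.12 to -0.059, adjusted p 0.0706 to 0.144) or without 10 nm low dose replicate 2 or 3 or 10 nm high dose replicate 3 (slope -0.15 to -0.096, adjusted p 0.0640 to 0.214). Cdc20 lost its slope call under quantile normalization (slope 0.091, adjusted p 0.0610) or without 10 nm low dose replicate 1, 2 or 3 or 10 nm high dose replicate 2 or 3 (slope 0.072 to 0.10, adjusted p 0.0518 to 0.144). The count was 1 without 10 nm high dose replicate 3, and 2 without 10 nm low dose replicate 2 or 3.

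With 500 nm silica 7 of 39 slopes passed and all fell (17.9%, against 8.20% of all genes, 2.83% rising and 5.37% falling). Among these 7 Ect2 fell most steeply, at -0.37 ± 0.093 log2 units per doubling, and Cenpf (-0.32 ± 0.049), Mki67 (-0.29 ± 0.048) and Anln (-0.29 ± 0.064) followed. Kif4 (-0.22 ± 0.058), Ncapd2 (-0.21 ± 0.048) and Bub1b (-0.16 ± 0.043) were shallower, with limma adjusted p for the 7 genes between 2.63e-04 for Cenpf and 0.0223 for Kif4. Quantile normalization gave 1 rising and 7 falling, and median centring and scaling to a common SD each 1 rising and 5 falling. Ect2 lost its slope call under scaling of the arrays to a common SD (slope -0.32, adjusted p 0.0696) or without 500 nm low dose replicate 3 (slope -0.34, adjusted p 0.0754). Kif4 lost its slope call under median centring of the arrays (slope -0.18, adjusted p 0.0527) or without 500 nm low dose replicate 1, 2 or 3 or 500 nm high dose replicate 3 (slope -0.23 to -0.19, adjusted p 0.0570 to 0.0984). Bub1b lost its slope call under median centring of the arrays and scaling of the arrays to a common SD (slope -0.13 to -0.095, adjusted p 0.0826 to 0.281) or without 500 nm low dose replicate 1, 2 or 3 or 500 nm high dose replicate 2 or 3 (slope -0.17 to -0.15, adjusted p 0.0509 to 0.0827). The count was 4 without 500 nm low dose replicate 3.

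Over all 7 groups together, limma's F test passed for 7 of 39 genes (17.9%, against 16.2% of all genes). They were Mki67 (adjusted p = 4.75e-05), Cenpf (adjusted p = 1.89e-04), Ncapd2 (adjusted p = 0.00842), Bub1b (adjusted p = 0.0131), Ccna2 (adjusted p = 0.0145), Aurkb (adjusted p = 0.0193) and Anln (adjusted p = 0.0395). Median centring ended the calls for Ccna2, Bub1b, Aurkb and Anln (adjusted p 0.0581 to 0.108), and scaling to a common SD those for Ccna2, Bub1b and Aurkb (0.0667 to 0.480). Leaving out 10 nm high dose replicate 3 ended the call for Aurkb (adjusted p 0.0670) and leaving out 500 nm high dose replicate 3 that for Ncapd2 (0.0513), while Anln lost its call without untreated replicate 1 or 2, 10 nm mid dose replicate 1, 10 nm high dose replicate 2, 500 nm low dose replicate 1, 2 or 3, 500 nm mid dose replicate 1, 2 or 3 or 500 nm high dose replicate 1, 2 or 3 (0.0507 to 0.213).

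Other probe sets of the same gene were compared with the brightest one. Of the 39 genes 18 had 29 further probe sets, and a further set had the opposite sign in 5 genes at the 10 nm high dose (Plk4, Bub3, Cenpf, Top2a and Smc4) and in 9 at the 500 nm high dose (Plk4, Bub3, Cdc20, Pttg1, Kif2c, Tpx2, Nusap1, Top2a and Smc4). Among the called genes that applied to Kif2c at the 500 nm high dose only. Between the high doses 8 genes, 0 of them called, had a further set of opposite sign, Cdc20 among them. For some uncalled genes a further set passed. At the 10 nm high dose these were Bub3, Racgap1, Tpx2 and Pttg1, lower (limma adjusted p 0.00256 to 0.0217), and Cdc20, higher (0.0367). At the 500 nm high dose they were Ccna2, Bub1, Bub3, Racgap1, Tpx2 and Pttg1, all lower (5.73e-05 to 0.0318). Between the high doses a further Bub3 set was lower with 10 nm silica (0.00318).

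Genes around the mitotic set were read from lists of the same pathway. At the high doses 20.2% of all genes were called with 10 nm (7.58% higher, 12.6% lower) and 15.3% with 500 nm silica (5.31% higher, 10.0% lower). In that order 4 and 4 of 12 G1 genes, 4 and 3 of 10 restraining CDK1 or controlling mitotic exit, and 9 and 8 of 17 E2F regulators were called. Of S phase genes 12 and 9 of 36 were called, and of the other mitotic genes 17 and 8 of 47, the latter near the share of all genes. The anaphase promoting complex had 1 and 1 of 13, below that share, and cohesin 0 and 2 of 7. Cdkn1a, the CDK inhibitor p21, rose at both high doses. It read 9.86, 9.98 and 9.70 in untreated cells, 11.20, 11.17 and 11.15 at the 10 nm high dose and 10.995, 10.96 and 11.11 at the 500 nm high dose, with no overlap. The change was 1.33 ± 0.094 with 10 nm and 1.17 ± 0.094 with 500 nm silica (limma adjusted p = 5.94e-09 and 3.62e-08). Cdkn1b, or p27, fell by 0.92 and 0.98 (limma adjusted p = 3.64e-04 and 2.07e-04), and Cdkn2c, or p18, changed by -0.88 ± 0.098 with 10 nm and -0.27 ± 0.098 with 500 nm silica (limma adjusted p = 2.78e-06 and 0.0722). Of the 12 G1 cyclins, CDKs and inhibitors 1 was called higher and 3 lower with 10 nm, and 2 higher and 2 lower with 500 nm silica. Median centring made the 10 nm split 2 and 2, and the 500 nm split was 1 and 2 under quantile normalization and 3 and 2 under scaling to a common SD.

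Among the 10 kinases, phosphatases and checkpoint genes that restrain CDK1 or control mitotic exit, 1 was called higher and 3 lower with 10 nm. With 500 nm silica 0 were called higher and 3 lower, and the 3 scaling settings added 1 higher with 500 nm. Wee1, the kinase that puts the inhibitory phosphate on CDK1, read 8.70, 8.63 and 9.24 in untreated cells, 7.73, 7.61 and 8.09 at the 10 nm and 7.79, 7.58 and 8.02 at the 500 nm high dose. It fell without overlap at both, by 1.05 and 1.06 on the log2 scale (limma adjusted p = 8.49e-05 and 8.97e-05). Mastl, or Greatwall, the kinase that keeps mitotic phosphatase off, changed by -0.95 ± 0.18 with 10 nm and -0.97 ± 0.18 with 500 nm silica (limma adjusted p = 8.07e-04 and 7.93e-04), and the DNA damage kinase Chek2 by -0.84 ± 0.17 with 10 nm and -0.95 ± 0.17 with 500 nm silica (limma adjusted p = 0.00137 and 5.40e-04).

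Of 17 E2F, RB family and MuvB regulators 1 was higher and 8 lower with 10 nm, and 1 higher and 7 lower with 500 nm silica. With 10 nm the split was 3 and 5 under quantile normalization and 3 and 6 under median centring or scaling to a common SD, and with 500 nm it was 2 and 4 under that scaling. Rbl2, the pocket protein p130 of the DREAM complex, fell by 1.29 and 1.25 (limma adjusted p = 3.88e-04 and 5.99e-04). E2f6, an E2F that acts as a repressor, changed by -0.94 ± 0.12 with 10 nm and -0.62 ± 0.12 with 500 nm silica, and E2f8, another, by -0.61 ± 0.11 with 10 nm and -0.87 ± 0.11 with 500 nm silica (limma adjusted p between 1.97e-05 and 0.00147).

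Of 36 S phase genes 0 were higher and 12 lower with 10 nm, and 1 higher and 8 lower with 500 nm silica. Scaling to a common SD made this 1 and 6, and 2 and 6, with medians of 0.0019 and 0.024 in place of -0.28 and -0.17. Tyms, thymidylate synthase, read 5.59, 5.54 and 5.42 in untreated cells, 3.99, 4.09 and 3.72 at the 10 nm and 4.01, 4.03 and 3.89 at the 500 nm high dose, and fell by 1.58 and 1.54 (limma adjusted p = 3.17e-07 and 4.72e-07). These levels lay below the array medians of all genes, 6.56 to 6.73. At the high doses they were near the medians of the other cell types' marker lists, 3.87 to 4.45, and the part of a floor in the change was not tested. Under the 7 other settings that included Tyms both calls were kept, with changes of -1.73 to -0.44 and -1.68 to -0.43. Ccne2, a cyclin of S phase entry, changed by -0.54 ± 0.16 with 10 nm and -1.04 ± 0.16 with 500 nm silica (limma adjusted p = 0.0209 and 1.18e-04), and the replication licensing factor Cdc6 by -0.48 ± 0.11 with 10 nm and -0.95 ± 0.11 with 500 nm silica (limma adjusted p = 0.00476 and 5.27e-06). Ccne2 lost its 10 nm call under quantile normalization, median centring of the arrays and scaling of the arrays to a common SD (log2 value -0.44 to -0.35, adjusted p 0.0564 to 0.166) or without untreated replicate 3 or 10 nm high dose replicate 3 (log2 value -0.53 to -0.36, adjusted p 0.0584 to 0.0959). Cdc6 lost its 10 nm call under quantile normalization and scaling of the arrays to a common SD (log2 value -0.35 to -0.26, adjusted p 0.0785 to 0.189).

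The 47 other mitotic genes had 0 higher and 17 lower with 10 nm and 1 higher and 7 lower with 500 nm silica, with medians of -0.29 and -0.22. With 10 nm all calls were lower under the 3 scaling settings too, at counts of 7, 9 and 6, and with 500 nm scaling to a common SD gave 3 higher and 4 lower. Aspm, which focuses spindle poles, read 8.28, 8.30 and 8.72 in untreated cells, 7.85, 7.61 and 8.03 at the 10 nm and 7.19, 7.03 and 6.90 at the 500 nm high dose. It fell by 0.60 and 1.39 (limma adjusted p = 0.00209 and 1.95e-07), and was higher with 10 nm than with 500 nm silica at the high doses by 0.79 ± 0.13 (limma adjusted p = 4.52e-04). Aspm lost its 10 nm call under averaging of all probe sets (log2 value -0.23, adjusted p 0.149). Kif18a, the kinesin that aligns chromosomes, changed by -1.11 ± 0.20 with 10 nm and -0.97 ± 0.20 with 500 nm silica (limma adjusted p = 5.23e-04 and 0.00196), and Haspin, the histone H3 kinase that recruits the passenger complex, by -0.99 ± 0.32 with 10 nm and -1.07 ± 0.32 with 500 nm silica (limma adjusted p = 0.0359 and 0.0289). Haspin lost its 10 nm call under quantile normalization, median centring of the arrays and scaling of the arrays to a common SD (log2 value -0.89 to -0.79, adjusted p 0.0566 to 0.112) or without untreated replicate 3 or 10 nm high dose replicate 1 or 2 (log2 value -0.88 to -0.61, adjusted p 0.0826 to 0.153). Haspin lost its 500 nm call under quantile normalization and scaling of the arrays to a common SD (log2 value -1.0 to -0.91, adjusted p 0.0672 to 0.0756) or without untreated replicate 3 or 500 nm high dose replicate 1 or 2 (log2 value -1.06 to -0.68, adjusted p 0.0725 to 0.157).

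Of 13 genes of the anaphase promoting complex Cdc23, one of its scaffold subunits, was the 1 called at either high dose, and of 7 cohesin genes 0 were called with 10 nm and 2 with 500 nm silica. Cdc23 changed by -0.91 ± 0.15 with 10 nm and -0.76 ± 0.15 with 500 nm silica (limma adjusted p = 1.90e-04 and 0.00121). Under scaling to a common SD 1 further gene of the complex was called higher at each dose. Nipbl, the cohesin loader, and Rad21, the cleaved ring subunit, changed by -0.58 ± 0.15 and -0.55 ± 0.18 with 500 nm silica (limma adjusted p = 0.0123 and 0.0491). Cdc23 lost its 500 nm call under averaging of all probe sets (log2 value -0.55, adjusted p 0.182). Nipbl lost its 500 nm call under array weights (log2 value -0.23, adjusted p 0.0681) or without untreated replicate 3 or 500 nm high dose replicate 2 or 3 (log2 value -0.51 to -0.41, adjusted p 0.0540 to 0.0753). Rad21 lost its 500 nm call under median centring of the arrays, averaging of all probe sets and scaling of the arrays to a common SD (log2 value -0.45 to -0.29, adjusted p 0.0831 to 0.248) or without untreated replicate 1, 2 or 3 or 500 nm high dose replicate 1 or 3 (log2 value -0.58 to -0.40, adjusted p 0.0777 to 0.227).

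When only the compared groups entered the fit, the 10 nm calls of Aspm, Ccne2, Cdc6, Chek2, E2f8, Haspin and Mastl were lost (limma adjusted p 0.0583 to 0.173), and the 500 nm calls of E2f6, Haspin, Nipbl and Rad21 (0.0559 to 0.121).

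**Figure D5:**
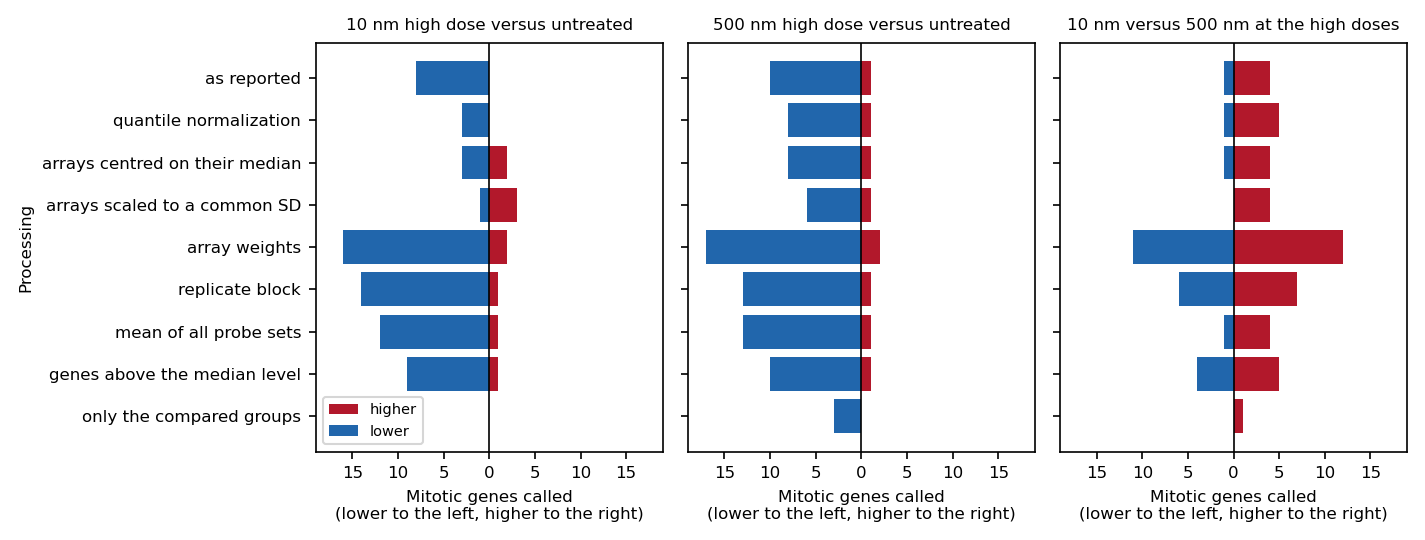
Number of the 39 genes called higher and lower (horizontal axis) at the 10 nm high dose, at the 500 nm high dose and between the 2, under the reported fit and 8 other settings. The 10 nm count runs from 0 with the compared groups alone to 18 with array weights. Its direction changes under scaling to a common SD (3 higher, 1 lower). The 500 nm calls are mostly lower under all settings. The share of all genes called under each setting is not shown.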

How the data were processed

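RNA of RAW 264.7 cells was measured on 21 mouse expression microarrays, 3 arrays for untreated cells and 3 for each of 6 silica groups, assigned from the sample titles. Values were deposited on a log scale that the authors made with RMA, per the submitters' processing notes, which give no version; the deposited values were read as log10 because the brightest, 4.34, is 22019 in base 10 and 20.3 in base 2, and were multiplied by 3.32 to give log2. Of 22690 probe sets 64 were controls. By GEO's platform annotation 20393 had 1 gene symbol, 691 several and 1606 none; each of 12393 genes was read from its brightest probe set with 1 symbol, and 4956 genes had several. All genes were fitted with limma 3.58.1 in R 4.3.3 (lmFit, contrasts, eBayes) on group alone over all 21 arrays, with 14 residual and 4.80 prior degrees of freedom and a median residual SD of 0.18, and Benjamini-Hochberg adjustment over all genes; calls have an adjusted p under 0.05. Error is SE of the fit, and the number of arrays limits the precision. On simulated data for the 10 nm high dose against untreated over 12393 genes, 92% of changes of log2 size 1 and 36% of size 0.5 were recovered, with 5 false calls. The simulation drew independent noise for each array and changed fewer genes than the 2506 called at that dose. Deviations shared between the real arrays were not simulated, so these shares and the false calls hold for that setting only.

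The same-numbered arrays were compared by the correlation of their deviations from the group means, which ran from -0.24 to 0.76 over 21 pairs of groups. In 9 of the 21 pairs every correlation was over 0.1. Among them were untreated with the 10 nm mid and 10 nm high doses, and the high doses of the 2 sizes. Of the 21 arrays 15 correlated best with their own number. The block is given beside the result where the groups compared are such a pair. It was fitted as a factor over all 21 arrays, also for groups whose numbers did not pair. Replicate 3 had the lowest SD in every group, and whether the correlations reflect array quality was not tested. The alternatives were 7 planned settings, arrays scaled to a common SD, chosen after seeing the data, and each array left out in turn.

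The members and the lists were chosen with earlier results of these data known. Every member was described; members called at a high dose have their value on every array, and up to 3 genes of each other list are named, those that moved furthest of its calls at the high doses. Foxm1 stands in 2 lists. Promoter windows are RefSeq's for GRCm38.p6 and were matched by symbol. The labels' protocols name different culture vessels for growth and for treatment.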

Additional observations from a re-analysis of the deposited data

Results flagged for a closer look

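At the high doses the particle sizes differed in 5 of 39 genes (12.8%) when tested directly against each other, against 7.52% of all genes. These doses differ in mass and in nominal surface area, so size was not varied alone. When only the compared groups entered the fit, Mki67 alone passed at the high doses (limma adjusted p 0.0629 to 0.348 for the others). At equal nominal area that fit did not call Cenpf (0.0906). At the high doses the log2 difference, 10 nm minus 500 nm, was 0.85 for Mki67, 0.69 for Cenpf, 0.48 for Anln, 0.34 for Ncapd2 and -0.33 for Cdk1. At equal nominal surface area, 10 nm mid against 500 nm high dose, it was 0.70 for Mki67 and 0.60 for Cenpf. The untreated arrays of Mki67, the chromosome coat protein, lay between those of the high doses, and its difference passed under all 8 other settings and without any single array of the groups compared. At the high doses Anln and Ncapd2 did not pass without 10 nm high dose replicate 1 or 2 or 500 nm high dose replicate 2 or 3 (limma adjusted p 0.0819 to 0.147), nor Cdk1 without 10 nm high dose replicate 2 or 3 or 500 nm high dose replicate 1 or 2 (0.0785 to 0.134). No group has over 3 arrays, so no single array was tested as standing apart from its group.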

How the results depend on the processing

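The share of all genes called under each setting is not given beside the counts here. Whether a rise in a count is particular to these genes was not tested. Array weights raised most counts of called genes. They gave 4, 10 and 18 of 39 for the 3 doses of 10 nm silica from low to high. For the mid and high dose of 500 nm silica they gave 9 and 19. The count was 9 at equal nominal area and 23 between the high doses. It was 10 and 16 for the 10 and 500 nm slopes, and 28 in the F test. With the replicate number as a block over all 21 arrays the counts were 5 and 15 at the 10 nm mid and high doses. They were 1 at the 500 nm mid and 14 at the 500 nm high dose, 4 at equal area and 13 between the high doses. For the slopes they were 11 and 12, and in the F test 20. Replicate numbers did not pair in all groups, so this was not a paired analysis throughout. Testing only genes above the median level gave 4 at the 10 nm mid dose, 1 at the 500 nm mid dose, 4 at equal area, 9 between the high doses and 13 in the F test, and averaging all probe sets gave 4 and 13 at the 10 nm mid and high doses and 11 in the F test. Quantile normalization gave 3 at the 10 nm high dose, 4 at equal area and 2 for the 10 nm slope. Median centring gave 0 and 5 at the 10 nm mid and high doses, and scaling to a common SD 4 and 7 at the 10 and 500 nm high doses. With the compared groups alone, which leaves fewer samples, the counts were 0 for the mid and 0 for the high dose of 10 nm silica, 3 at the 500 nm high dose, 1 at equal area, 1 between the high doses, and 1 for the 10 nm slope; that setting was not run for the F test, which uses all groups. Leaving out each array in turn gave 0 to 2 at the 10 nm mid and 4 to 10 at the 10 nm high dose, 8 to 12 at the 500 nm high dose, 2 to 4 between the high doses, 1 to 5 and 4 to 7 for the slopes and 5 to 10 in the F test. Of 2365 single-gene values (each gene, test and setting) 162 had the opposite sign to the reported one: 34 under scaling to a common SD, 16 under median centring, 16 with array weights, 14 under quantile normalization, 9 under averaging of all probe sets and 73 with an array left out. Scaling to a common SD turned 18 of 39 members at the 10 nm and 12 of 39 at the 500 nm high dose. In 159 of the 162 the gene passed in neither fit. In the other 3 it passed in one: Cdk1 with 10 nm became 0.30 under scaling to a common SD, and averaging all probe sets turned Bub3 with 10 nm to -0.28 and Tpx2 with 500 nm to -0.39, where the average takes in further probe sets; other causes were not tested. Including the F test, 2272 values stayed on their side of the threshold, 86 passed newly and 200 no longer passed. In the simulation, with 3 arrays a group, changes of log2 size 0.5 were recovered in part only.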
